A study of Homo sapiens with 14 samples.

Results

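The comparison set 2 cell populations grown from single cells against 2 that were not. Those grown from single cells, PC3-ML (Clone 1) and PC3-ML (Clone 3), descend from the subline PC3-ML and are called Clone 1 and Clone 3 here. PC3-ML and PC3-N, sublines of the human prostate cancer line PC3, are the uncloned populations. Each population had 2 arrays from different passages, which gave 4 arrays of clones against 4 arrays of uncloned sublines, 8 of the 14 arrays of the series. The arrays of each group were taken by their titles, and the comparison was chosen with earlier results of these data known. Both clones and PC3-ML are labelled bone metastatic and PC3-N is labelled as not. None of the 4 populations carries the PDGFRα construct. The other 6 arrays came from PC3-N(PDGFRα), which overexpresses the platelet-derived growth factor receptor alpha, from DU-145, another human prostate cancer line, and from DU-145 (PDGFRα). All grew in the same serum-containing DMEM.

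A cloned population descends from 1 cell, so it carries the expression state, copy number and mutations of that cell and of what arose later, while an uncloned line is a mixture. A gene that differs between a clone and the line it came from may have differed in the founding cell or have changed during the growth of the clone. PC3 was established from a bone metastasis, lacks the androgen receptor program in large part, and carries many chromosome rearrangements. In this design each clone is 1 line, both clones have PC3-ML as parent, and the labels name no uncloned population that was carried through the same handling. Single-cell origin, handling during cloning and time in culture therefore cannot be told apart. In bulk RNA of these cultures, fewer cells expressing a gene and less RNA per cell cannot be told apart either.

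The deposited values are intensities on a linear scale and were tested as log2, over 18372 genes. Their median was 29.9 to 30.5 on the clone arrays and 30.9 to 31.3 on the uncloned arrays. Across genes, which are not independent replicates, the 2 passages of each of the 4 populations correlated at r of 0.993 to 0.996. Arrays of PC3-ML and PC3-N correlated at 0.984 to 0.993, those of Clone 1 and PC3-ML at 0.972 to 0.981, those of Clone 3 and PC3-ML at 0.978 to 0.985, and those of the clones with each other at 0.979 to 0.980. CTNNA1, which encodes alpha-catenin and is lost in PC3 cells, read 23.0 to 24.4 in the clones and 22.3 to 23.9 in the uncloned sublines, and averaged 219.7 in DU-145. The mesenchymal filament gene VIM read 331 to 376 in the clones and 299 to 333 in the uncloned sublines, and the epithelial keratin gene KRT19 was at 630.2 in Clone 1 and 519 in Clone 3, against 437 in PC3-ML and 592 in PC3-N. Of the marker lists of other cell types, 9 of 12 leukocyte and endothelial genes, 9 of 12 fibroblast genes and 7 of 9 neuroendocrine genes had a mean log2 under 5, near the floor of the scale. PTPRC of leukocytes, CDH5 of endothelium, DCN and LUM of fibroblasts, and CHGA and SYP of neuroendocrine cells were among these, while the endothelial gene KDR, given further on, was not. CDH5 was at 22.9 in Clone 1 and 22.8 in Clone 3, against 23.5 in PC3-ML and 24.0 in PC3-N, and CHGA at 23.3 in Clone 1 and 23.2 in Clone 3, against 24.8 in PC3-ML and 24.5 in PC3-N.

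A gene was called on the same side when each clone differed from each uncloned subline in the same direction. The p of a gene was the largest of the 4 p values from limma, adjusted by Benjamini-Hochberg over all genes. This test called 65 of 18372 genes, or 0.354%. Both clones were higher in 46 (0.25% of all genes) and lower in 19 (0.103%). Among the higher genes were the cytokine gene IL1B, the desmosome gene DSP, the beta-actin gene ACTB, the cell cycle kinase gene CDK4, the proteasome gene PSMC3 and the vesicle genes LMAN2 and ARF1. Among the lower genes were the cyclin gene CCNA1, the telomerase RNA gene TERC, and a run of genes for small mitochondrial proteins, with ATP5ME, ATP5MK, UQCC5, UQCC2, UQCR10, NDUFB1, MRPL33 and MRPL14 among them.

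The split between directions depended on the scaling. After quantile normalization, which forces all arrays onto 1 distribution, 78 genes were called, 33 higher and 45 lower, and 46 of the 65 were among them. Most called genes were bright. Of the 65, 59 (90.8%) had a mean of at least 6 on the log2 scale, an intensity of 64.0, against 30.9% of all genes. Over the 5685 genes that bright, the median difference between clones and uncloned sublines was 0.086 (log2) as deposited and 0.004 after quantile normalization, while over all genes it was -0.015 and -0.002. The part of this shift in any single call was not tested.

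The 4 clone arrays did not overlap the 4 uncloned arrays in any of the 65 called genes, which the rule that chose them largely fixes. Over all genes the clone arrays lay wholly above in 1312 (7.14%) and wholly below in 1463 (7.96%). The distance between the nearest line means, called the gap here, was 1.27-fold to 2.44-fold for the higher genes, with a median of 1.54-fold, and 1.26-fold to 3.82-fold for the lower ones, with a median of 1.57-fold. PC3-ML and PC3-N themselves differed, by their own adjusted p, in 1 of the 46 higher genes, IL1B, and in 0 of the 19 lower ones (64 genes, 0.348% of all). The clones differed from each other in 10 of the 46, with Clone 1 higher in 9 of these, and in 4 of the 19 (1925 genes, 10.5% of all). The called genes nearest the threshold were ELOF1 (adjusted p = 0.0492), UQCR10 and CUTC (both 0.0496), and the nearest ones outside it were CCNL2 (0.0502), PRRC2C (0.0509) and ATP5MF (0.0517).

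**Figure D1:**
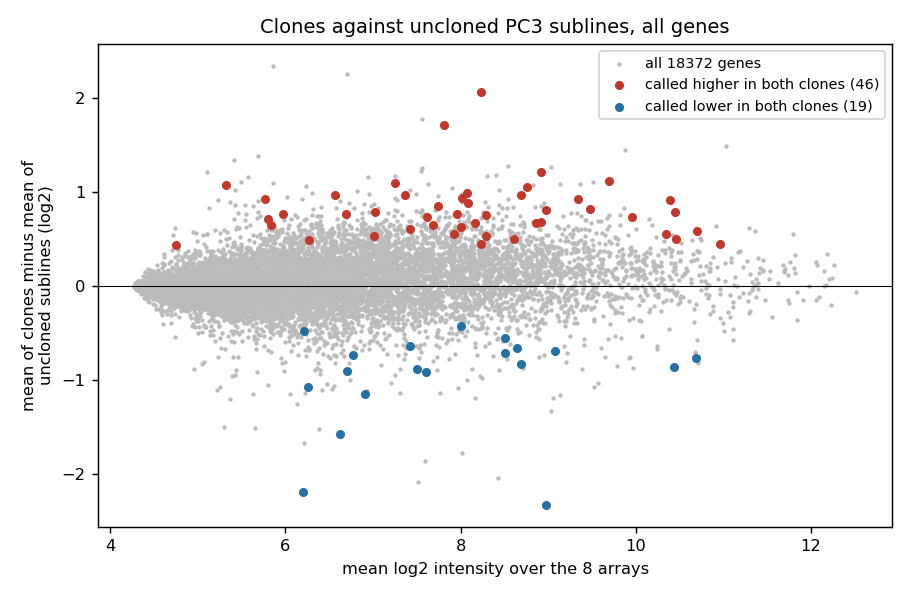
Mean of the 4 clone arrays minus mean of the 4 uncloned arrays (log2, vertical axis) against the mean log2 intensity over the 8 arrays (horizontal axis), a point per gene. Red points are the 46 genes called higher in both clones, blue points the 19 called lower, and grey points all 18372 genes. The coloured points sit mostly right of a mean of 6, and many grey points reach as far from 0 without a call.

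These p values measure a difference against the spread between passages of a line. With the 4 line means as the values, which measures the spread between lines, limma called 0 genes, the lowest adjusted p being 0.245. At an unadjusted p under 0.05 that test had 2378 genes, 12.9% of all. All 65 called genes were among them, which the rule that chose them largely fixes. An exact permutation test of 2 lines against 2 cannot give a p below 0.333. Fitted on the 8 arrays alone, limma called 35 genes, 16 of them among the 65, and 20 of the 30 genes with the widest gaps lost their call. Over the genes of mean log2 at least 5.5 alone it called 120, 54 of them among the 65. The calls also leaned on single arrays. Without PC3-N replicate 2 the count was 4, without Clone 3 replicate 1 it was 8, without PC3-N replicate 1 or Clone 3 replicate 2 it was 11, without Clone 1 replicate 2 it was 12, and without PC3-ML replicate 1 it was 14. Without Clone 1 replicate 1 it was 26 and without PC3-ML replicate 2 it was 39. All 65 kept their side in every one of these 8 fits, which the lack of overlap between their clone and uncloned arrays fixes in advance. ATP5ME, CASP6 and NCOA4 kept their call in all of these fits. Genes described further on that kept it in none include ARPC3, AURKA, H4C8, HEATR1, MRPL14, NCKAP1, PSMA4, STX8 and UQCR10.

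Promoters of 4 called genes described further on are shown, since they had wide gaps or, for ATP5ME, kept the call without any 1 array. Each is the 250 bases upstream of the gene's start in RefSeq on GRCh38.p14, on the gene's strand. Capitals mark matches, on either strand, to the TATA box spelled TATAAA, the CCAAT box, the GC box spelled GGGCGG, the ETS motif spelled CCGGAAG, the AP-1 motif spelled TGANTCA, or the consensus of NRF1 or NF-kB.
IL1B, chr2:112836780-112837029, minus strand: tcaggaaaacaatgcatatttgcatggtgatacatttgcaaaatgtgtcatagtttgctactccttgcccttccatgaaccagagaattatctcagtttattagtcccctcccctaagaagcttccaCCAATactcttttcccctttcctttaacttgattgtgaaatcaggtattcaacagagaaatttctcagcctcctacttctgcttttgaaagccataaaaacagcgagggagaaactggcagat
LMAN2, chr5:177351669-177351918, minus strand: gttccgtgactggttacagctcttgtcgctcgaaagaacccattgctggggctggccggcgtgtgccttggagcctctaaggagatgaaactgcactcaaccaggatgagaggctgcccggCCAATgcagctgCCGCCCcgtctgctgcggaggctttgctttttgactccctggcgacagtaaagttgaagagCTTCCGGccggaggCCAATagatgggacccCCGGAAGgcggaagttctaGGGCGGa
CCNA1, chr13:36431705-36431954, plus strand: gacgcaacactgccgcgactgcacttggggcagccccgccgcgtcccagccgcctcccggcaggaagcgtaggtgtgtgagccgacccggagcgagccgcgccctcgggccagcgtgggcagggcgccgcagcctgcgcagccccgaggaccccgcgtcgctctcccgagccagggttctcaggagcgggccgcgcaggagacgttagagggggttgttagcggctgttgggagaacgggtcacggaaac
ATP5ME, chr4:674277-674526, minus strand: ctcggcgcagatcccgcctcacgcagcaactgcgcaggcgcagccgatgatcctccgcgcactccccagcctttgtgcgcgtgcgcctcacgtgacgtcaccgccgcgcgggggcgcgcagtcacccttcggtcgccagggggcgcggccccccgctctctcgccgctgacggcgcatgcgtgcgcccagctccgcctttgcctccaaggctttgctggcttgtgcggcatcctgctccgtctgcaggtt

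The IL1B window held 1 CCAAT match, 123 to 119 bases before the start, and no match to the NF-kB consensus. The LMAN2 window held 6 matches, of which 2 were CCAAT, 2 GC box and 2 ETS, with a GC box 7 to 2 bases before the start. The CCNA1 and ATP5ME windows held 0. RefSeq promoters were found for 40 of the 46 higher, 16 of the 19 lower and 14205 of all genes tested. A GC box was in 72.5% of the higher, 43.8% of the lower and 57.5% of all promoters, and CCAAT in 32.5%, 25.0% and 34.5%. ETS letters were in 17.5%, 18.8% and 12.1%, and AP-1 letters in 10.0%, 0% and 4.91%. The NF-kB consensus was in 10.0%, 12.5% and 11.1%, that of NRF1 in 0%, 0% and 1.93%, and a TATA box in 0%, 0% and 8.55%. Of the called genes 90.8% had a mean log2 of at least 6, against 30.9% of all genes. Motif shares over genes that bright were not computed, so the base here is all promoters. A match describes the letters of these windows alone.

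Several genes among the widest gaps encode proteins of the Golgi, endosomes and other vesicles, a grouping made after the values were seen and with no list behind it. LMAN2, which encodes a lectin that carries glycoproteins out of the endoplasmic reticulum, read 477 and 568 in Clone 1 and 349.7 and 294 in Clone 3, against 96.4 and 144 in PC3-ML and 126 and 137 in PC3-N. All 4 clone arrays exceeded the highest uncloned array by more than 2-fold. The gap was 2.44-fold (log2 1.29, adjusted p = 0.0232), and Clone 1 was above Clone 3 by 0.70 (limma adjusted p = 0.0270). The 6 arrays of the other lines lay between 92.6 and 141, so the clones were the highest of all 14 arrays. ARF1, the small GTPase that recruits coat proteins to the Golgi, read 619 and 745 in Clone 1 and 617 and 532 in Clone 3, against 268 and 322 in PC3-ML and 304 and 315 in PC3-N. Its levels in the clones were close to each other and about 2.07 times those of the uncloned sublines (gap 0.89 on the log2 scale, adjusted p = 0.0232).

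VPS33A, a subunit of the complexes that tether endosomes and lysosomes, was at 333 to 377 in the clones and 164 to 206 in the uncloned sublines (gap 0.81, adjusted p = 0.0232). SLC30A6, a zinc transporter of the Golgi, was at 158 to 185 in the clones and 96.1 to 102 in the uncloned sublines (gap 0.75, adjusted p = 0.0216). For SLC30A6 the 6 arrays of the other lines reached 179, within the range of the clones. In the other direction, STX8, a membrane fusion protein of late endosomes, read 118 and 108 in Clone 1 and 149 and 166 in Clone 3, against 233 and 263 in PC3-ML and 238 and 251 in PC3-N. Its lowest values were in Clone 1 (Clone 1 minus Clone 3 -0.48, limma adjusted p = 0.0132), and both clones lay below all uncloned arrays (gap -0.64, adjusted p = 0.0349). COMMD1, a protein of copper balance and endosomal sorting that also limits NF-kB, read 163 and 145 in Clone 1 and 121 and 140.0 in Clone 3, against 259.9 and 264 in PC3-ML and 258 and 292 in PC3-N (gap -0.77, adjusted p = 0.0113).

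IL1B encodes interleukin-1 beta, an inflammatory cytokine. It read 770.1 and 704 in Clone 1 and 561 and 461 in Clone 3, against 264 and 258 in PC3-ML and 71.4 and 95.5 in PC3-N. The 4 lines formed an order, with Clone 1 highest, then Clone 3, then PC3-ML, and PC3-N lowest, and no array of a line overlapped the next line. Clone 3 minus PC3-ML, the narrowest of the 4 differences, was 0.96 (adjusted p of the same-side test 0.0232), and PC3-ML was itself above PC3-N by 1.66 (limma adjusted p = 6.9e-04). The highest IL1B values of the series were 1103 and 1066 in PC3-N(PDGFRα), above both clones. IL1B lost its call after quantile normalization (adjusted p = 0.0584).

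IL1B belongs to a list of cytokines and targets of the IL-1 and NF-kB pathway, of which 21 members were measured. By the mean of the clones minus the mean of the uncloned sublines, the call used for lists from here on, 7 of the 21 rose and 0 fell (over all genes 1767 rose, 9.62%, and 1082 fell, 5.89%, in all 2849 or 15.5%), and the counts were the same after quantile normalization. The list's median difference was 0.13, against -0.015 over all genes. The 7 were IL1B, the neutrophil chemokine genes CXCL6 and CXCL1, CCL20, the adhesion receptor gene ICAM1, NFKB1 and the inhibitor gene NFKBIA. CXCL6 read 371 and 330.0 in Clone 1 and 375 and 323 in Clone 3, against 250.3 and 209.8 in PC3-ML and 45.9 and 45.0 in PC3-N. Its clone arrays were above all 10 others, but the largest step lay between PC3-ML and PC3-N (2.33, limma adjusted p = 3.2e-05), and the gap of 0.60 from the clones to PC3-ML was not called (adjusted p = 0.0711). CXCL1 had geometric means of 485 in Clone 1 and 501 in Clone 3, against 362 in PC3-ML and 163 in PC3-N, again lowest in PC3-N. NFKB1, a subunit of NF-kB, differed less between the uncloned sublines, at 119.5 in Clone 1 and 117 in Clone 3, against 81.2 in PC3-ML and 80.1 in PC3-N (0.55, SE 0.10, adjusted p = 0.00434). NFKBIA was at 202 in Clone 1 and 197 in Clone 3, against 204 in PC3-ML and 97.5 in PC3-N, so PC3-N alone stood apart. The summed intensity of the 21 members was 2479 to 3029 on the clone arrays and 1113 to 2487 on the uncloned arrays.

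The cytoskeleton and adhesion genes among the 46 included DSP and ACTB. DSP encodes desmoplakin, which ties desmosomes to keratin filaments, and read 231 and 257 in Clone 1 and 191 and 217 in Clone 3, against 94.5 and 101 in PC3-ML and 116 and 107 in PC3-N. Both clones were at about 2.14 times the uncloned level (gap 0.87, adjusted p = 0.0116), with PC3-N(PDGFRα) between them at 163 and 153. ACTB, the main cytoplasmic actin, read 1116 and 1309.8 in Clone 1 and 1315 and 1141 in Clone 3, against 423 and 529 in PC3-ML and 661 and 664 in PC3-N. PC3-N was above PC3-ML without a call (adjusted p = 0.198), and both clones were above either (gap 0.87, adjusted p = 0.0282). ACTB was the highest in the clones of all 14 arrays, yet it lost its call after quantile normalization (adjusted p = 0.0657). TPM2, which encodes a tropomyosin that coats actin filaments, was lower. It read 82.0 and 81.6 in Clone 1 and 93.2 and 81.4 in Clone 3, against 148 and 128 in PC3-ML and 150.2 and 139 in PC3-N (gap -0.66, adjusted p = 0.0232), and PC3-N(PDGFRα) was low as well at 100.3 and 92.7.

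Further genes among the 46 act on the same filaments and were named after their values were seen. ARPC3, a subunit of the actin-nucleating Arp2/3 complex, was at 257 to 330.3 in the clones and 142 to 175 in the uncloned sublines (gap 0.63), and NCKAP1, of the WAVE complex that activates Arp2/3, at 445 to 487 in the clones and 307 to 339 in the uncloned sublines (gap 0.41). On the log2 scale ARPC3 averaged 8.48 in DU-145 (PDGFRα), above Clone 1 at 8.04 and Clone 3 at 8.30. EHF, an ETS factor of epithelial cells, read 48.4 and 40.3 in Clone 1 and 79.2 and 73.8 in Clone 3, against 29.2 and 29.0 in PC3-ML and 26.4 and 25.8 in PC3-N, where the uncloned values are near the floor of the scale. Clone 3 was the higher of the clones for EHF (Clone 1 minus Clone 3 -0.79, limma adjusted p = 4.3e-04). The list of simple epithelial genes gave 4 rises and 1 fall among 16 measured members, with and without quantile normalization. Over all genes of mean log2 at least 6, 24.8% rose and 10.9% fell as deposited, and the list's rises were near that share. EPCAM, an adhesion gene of epithelia, was at 1631 in Clone 1 and 453 in Clone 3, against 466 in PC3-ML and 567 in PC3-N. The keratin gene KRT7 was at 517 in Clone 1 and 159.6 in Clone 3, against 124 in PC3-ML and 149 in PC3-N. Both were high in Clone 1 and near the uncloned level in Clone 3. The keratin gene KRT18 was called by the mean difference (1.15, SE 0.30), with wide passages of 201 and 309 in Clone 1 and 142 and 129 in Clone 3, against 36.3 and 80.8 in PC3-ML and 168 and 94.1 in PC3-N, and a second probe set of KRT18 gave 0.01. Its partner KRT8 read 403 and 405 in Clone 1 and 227 and 253 in Clone 3, against 207 and 220.2 in PC3-ML and 511 and 395 in PC3-N, so the groups overlapped (mean difference 0.01, limma adjusted p = 0.981).

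**Figure D2:**
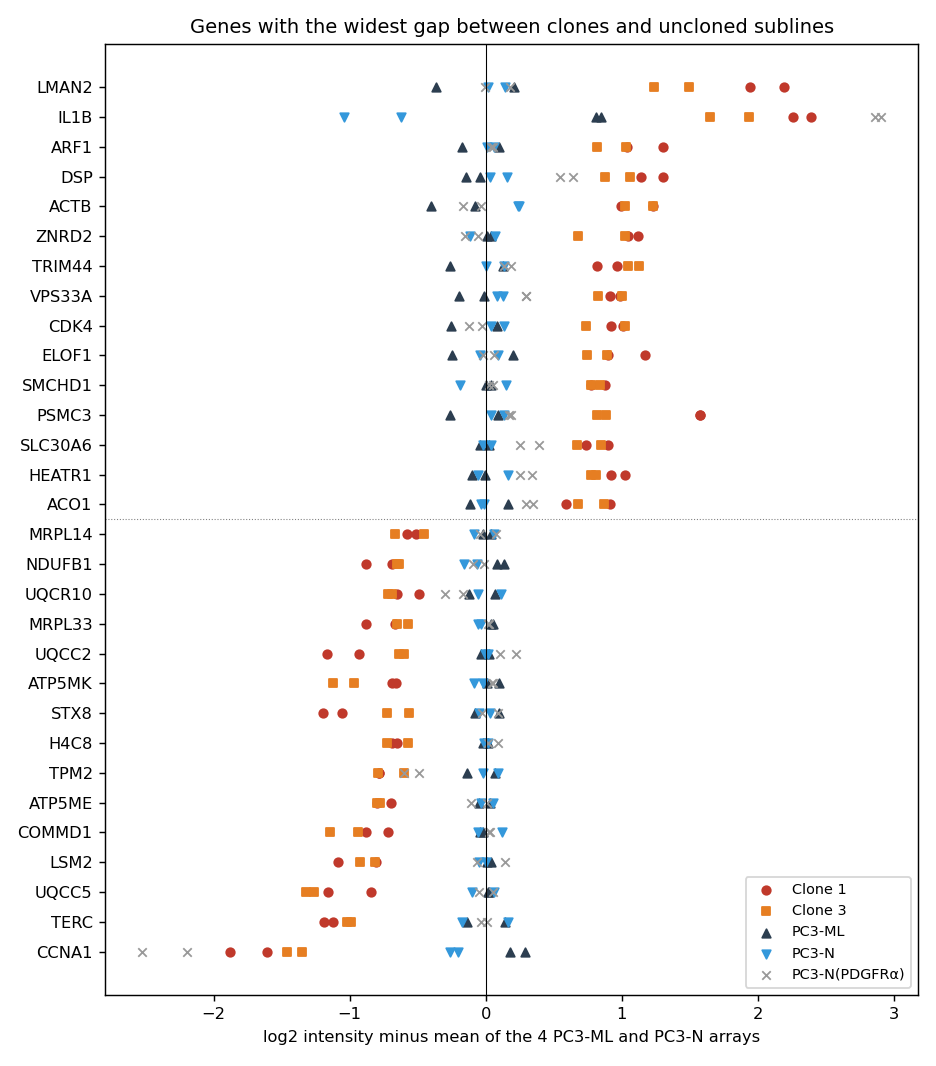
Log2 intensity of each array minus the mean of the 4 PC3-ML and PC3-N arrays (horizontal axis) for the 15 genes with the widest gap in each direction (rows). Red circles are Clone 1, orange squares Clone 3, dark upright triangles PC3-ML, blue inverted triangles PC3-N and grey crosses PC3-N(PDGFRα). In every row all 4 clone arrays lie on one side of the 4 uncloned arrays, as the choice of these genes required. The crosses of IL1B and CCNA1 lie beyond the clones.

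Genes of growth and of the cell cycle followed. CDK4, the kinase that with D-type cyclins drives passage through G1, read 948 and 893 in Clone 1 and 958 and 787 in Clone 3, against 395 and 499 in PC3-ML and 516 and 483 in PC3-N. The lowest clone array was at 787 and the highest of the 10 others at 516 (gap 0.80, adjusted p = 0.0262). CCNA1, the cyclin A gene otherwise known from the male germ line, moved the other way. It read 46.2 and 55.8 in Clone 1 and 66.8 and 61.8 in Clone 3, against 192 and 208 in PC3-ML and 141 and 148 in PC3-N. Both clones were at about 0.336 times the uncloned level, and the gap was -1.17 (adjusted p = 0.0132). CCNA1 was lower still in PC3-N(PDGFRα), at 37.2 and 29.5, and in DU-145, at 43.2 and 44.7, so low CCNA1 was shared with lines that are not clones.

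AURKA, a kinase of the mitotic spindle, read 386 and 404 in Clone 1 and 366 and 349.6 in Clone 3, against 274 and 288 in PC3-ML and 236 and 242 in PC3-N (gap 0.35, adjusted p = 0.0238, and not called after quantile normalization). The DU-145 lines were higher, with means of 404 and 469.6. Of 18 mitotic genes 9 rose and 1 fell by the mean difference, and 5 rose and 1 fell after quantile normalization. The risers included TOP2A, a topoisomerase of dividing cells, at 800.5 in Clone 1 and 678 in Clone 3, against 561 in PC3-ML and 474 in PC3-N, and BUB1, a checkpoint kinase, at 339.9 in Clone 1 and 178 in Clone 3, against 164 in PC3-ML and 174 in PC3-N. BUB1 was high in Clone 1 alone, and CCNB1, a mitotic cyclin, fell to 472 in Clone 1 and 444 in Clone 3, against 531 in PC3-ML and 518 in PC3-N. Of 17 genes of DNA replication and S phase 8 rose and 0 fell, and 5 rose after quantile normalization. The helicase subunit MCM7 was at 186 in Clone 1 and 205 in Clone 3, against 121 in PC3-ML and 145 in PC3-N (0.56, SE 0.10), and CDC45, its partner in the replicative helicase, at 261 in Clone 1 and 267 in Clone 3, against 184 in PC3-ML and 212 in PC3-N (0.42, SE 0.10). The list medians were 0.28 for mitotic and 0.22 for S-phase genes, against 0.086 over all genes of mean log2 at least 6.

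TERC, the RNA template of telomerase, read 48.9 and 51.3 in Clone 1 and 54.9 and 56.1 in Clone 3, against 123 and 101 in PC3-ML and 99.0 and 125 in PC3-N. The clone arrays lay within 48.9 to 56.1, near the DU-145 mean of 59.9, and the gap was -1.0 (adjusted p = 0.0182). The 2 widest falls of all were small nucleolar RNAs, which guide or assist the processing and modification of other RNAs, and were named after their values were seen. SNORD13 read 287 and 178 in Clone 1 and 164 and 303 in Clone 3, against 1730.4 and 1263 in PC3-ML and 824 and 903 in PC3-N, and SNORD41 31.7 and 36.1 in Clone 1 and 29.1 and 42.1 in Clone 3, against 209 and 167 in PC3-ML and 125 and 143 in PC3-N. Both had a gap of -1.93, and their passages varied widely within a line. Among 175 small nucleolar RNAs 2 rose and 23 fell by the mean difference, 3 and 21 after quantile normalization, and their median was -0.02.

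Nuclear genes called higher included SMCHD1, a chromatin protein that keeps silenced loci silent, at 981 and 917 in Clone 1 and 916 and 957 in Clone 3, against 548 and 537 in PC3-ML and 595 and 468 in PC3-N (gap 0.79, adjusted p = 0.0232). A second SMCHD1 probe set differed by 0.16 between clones and uncloned sublines, against 0.82 for the brighter one, and the gene lost its call after quantile normalization. ELOF1, an elongation factor of RNA polymerase II, was at 66.0 to 88.6 in the clones and 33.2 to 45.2 in the uncloned sublines (gap 0.79, adjusted p = 0.0492). HEATR1, a nucleolar protein needed to make ribosomal RNA, was at 342 to 407 in the clones and 186 to 224 in the uncloned sublines (gap 0.74, adjusted p = 0.0259, and 0.0709 after quantile normalization). BMS1, a nucleolar GTPase of small subunit assembly named after its values were seen, read 1169.6 and 1374 in Clone 1 and 1259 and 1322 in Clone 3, against 837 and 829 in PC3-ML and 702 and 729 in PC3-N. ZNRD2, a zinc ribbon protein, was at 108 to 147 in the clones and 62.4 to 70.9 in the uncloned sublines (gap 0.82), and TRIM44, a tripartite motif protein with a ubiquitin protease-like domain, at 336 to 415 in the clones and 159 to 209 in the uncloned sublines (gap 0.82). The histone H4 gene H4C8 was lower, at 305 to 339 in the clones and 497 to 509.8 in the uncloned sublines (gap -0.65, adjusted p = 0.0234). Histone H4 genes have near-identical copies, so which copy gave the H4C8 signal is uncertain.

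PARP1, the sensor of DNA breaks, and NCOA4, the receptor that delivers ferritin to lysosomes and was first described as a coactivator of the androgen receptor, had small spreads and were named after their values were seen. PARP1 read 739.5 and 757 in Clone 1 and 557 and 629 in Clone 3, against 389 and 382 in PC3-ML and 382 and 375 in PC3-N (gap 0.62, adjusted p = 0.00901). NCOA4 read 265 and 265 in Clone 1 and 203 and 195 in Clone 3, against 114 and 131 in PC3-ML and 111 and 116 in PC3-N (gap 0.70, adjusted p = 0.00568). Both were higher in Clone 1 than in Clone 3, NCOA4 by 0.41 (limma adjusted p = 0.00275). CASP6, an executioner caspase, was at 71.9 to 91.8 in the clones and 45.7 to 50.1 in the uncloned sublines (gap 0.57, adjusted p = 0.00568), and SPOP, the substrate adaptor of a ubiquitin ligase that is often mutated in prostate cancer, at 479 to 661 in the clones and 249.7 to 316 in the uncloned sublines (gap 0.72). ACO1, the cytosolic aconitase that doubles as an iron regulatory protein, was at 287 to 360.0 in the clones and 176 to 213 in the uncloned sublines (gap 0.73, adjusted p = 0.0361, and 0.0668 after quantile normalization), with DU-145 at 356 and 329.

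The proteasome, which degrades proteins tagged with ubiquitin, had 2 of the 46. PSMC3, an ATPase of its regulatory particle, read 945 and 943 in Clone 1 and 584 and 557 in Clone 3, against 264 and 337 in PC3-ML and 324 and 347 in PC3-N. Clone 1 was the highest and exceeded Clone 3 by 0.73 (limma adjusted p = 0.00229), and Clone 3 was still 1.70 times the nearest uncloned line (adjusted p of the same-side test 0.0232). PSMA4, a subunit of its core named after its values were seen, read 1778 and 1640.2 in Clone 1 and 1595 and 1671 in Clone 3, against 1228 and 1220.2 in PC3-ML and 1119.7 and 1155 in PC3-N (gap 0.42, adjusted p = 0.0232). Among 45 proteasome genes 16 rose and 2 fell by the mean difference (35.6% and 4.44%), but 11 rose and 7 fell after quantile normalization. PSMC4, another of the ATPases, had geometric means of 223 in Clone 1 and 289 in Clone 3, against 169 in PC3-ML and 173 in PC3-N, and PSMB5, a catalytic subunit, of 464 in Clone 1 and 455 in Clone 3, against 325 in PC3-ML and 325 in PC3-N. This family and the next ones were chosen after values were seen. Over the 5685 genes of mean log2 at least 6, 1409 rose (24.8%) and 617 fell (10.9%), and 964 rose and 948 fell after quantile normalization. The base thus moved with the scaling, as did the counts of the families and of some of the lists.

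The translation machinery was uneven. Of 49 initiation factor genes 16 rose and 1 fell, 11 and 3 after quantile normalization. EIF4A3, a helicase of the exon junction complex, had geometric means of 488 in Clone 1 and 413 in Clone 3, against 238 in PC3-ML and 291 in PC3-N, and EIF3G, a subunit of the factor that loads the small ribosomal subunit, of 417 in Clone 1 and 379 in Clone 3, against 256 in PC3-ML and 287 in PC3-N. For 65 cytoplasmic ribosomal protein genes the direction depended on the scaling, with 18 rises and 9 falls as deposited and 12 rises and 17 falls after quantile normalization, and a median of 0.02 that became -0.03. RPS9, called on the same side and named after its values were seen, read 1790.4 and 1956 in Clone 1 and 1893 and 1749 in Clone 3, against 734 and 952 in PC3-ML and 1127 and 1165 in PC3-N. Ribosomal protein genes and EEF1G have many near-identical pseudogenes, so the source of the signal is uncertain for RPS9, for EEF1G (1667 to 1971 in the clones and 951 to 1155 in the uncloned sublines) and for the called pseudogene RPL13AP5.

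The mitochondrial genes among the 19 were lower in both clones, and for ATP5MK and UQCC2 the clones also differed from each other. ATP synthase makes ATP from the proton gradient that respiratory complexes I, III and IV build, and complex III is put together with the help of assembly factors. ATP5ME, the small e subunit of ATP synthase, read 1231 and 1327 in Clone 1 and 1234 and 1253 in Clone 3, against 2072 and 2189.7 in PC3-ML and 2097 and 2234 in PC3-N. The clone arrays fell within 1231 to 1327 and no array of the other 5 lines was under 1989.7. Its gap was -0.74 (adjusted p = 0.00568), and the highest adjusted p with any 1 array left out was 0.0470. ATP5MK, another small subunit of ATP synthase, read 1182 and 1161 in Clone 1 and 955 and 857 in Clone 3, against 1999 and 1885 in PC3-ML and 1756 and 1843 in PC3-N (gap -0.62, adjusted p = 0.0113), and Clone 3 was the lower clone (Clone 1 minus Clone 3 0.37, limma adjusted p = 0.00708). A second ATP5MK probe set gave a mean difference of -0.50, against -0.86.

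UQCC5, an assembly factor of complex III, read 99.8 and 80.1 in Clone 1 and 71.8 and 74.6 in Clone 3, against 181 and 182 in PC3-ML and 167 and 187 in PC3-N. The highest clone array was at 99.8 and the lowest of the 10 others at 167 (gap -0.98, adjusted p = 0.00901). UQCC2, another complex III assembly factor, read 289.7 and 246 in Clone 1 and 365 and 355 in Clone 3, against 538 and 561 in PC3-ML and 551 and 557 in PC3-N, lowest in Clone 1 (Clone 1 minus Clone 3 -0.43, limma adjusted p = 0.0127). UQCR10, a subunit of complex III, was at 130.2 to 152 in the clones and 196 to 232 in the uncloned sublines (gap -0.55), and NDUFB1, of complex I, at 255 to 300.2 in the clones and 419 to 513 in the uncloned sublines (gap -0.54). MRPL33 and MRPL14 belong to the large subunit of the mitochondrial ribosome. MRPL33 was at 373 to 463 in the clones and 661 to 712 in the uncloned sublines (gap -0.57, adjusted p = 0.0148) and MRPL14 at 278 to 321 in the clones and 417 to 460.1 in the uncloned sublines (gap -0.53, adjusted p = 0.0489).

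Not all genes of these complexes were lower. Of 80 respiratory chain and ATP synthase genes 13 rose and 18 fell (16.2% and 22.5%), 11 and 30 after quantile normalization, and the median was -0.03 as deposited and -0.14 after. Falls also grew from 617 to 948 over the 5685 genes of mean log2 at least 6. SDHD, a subunit of complex II, had geometric means of 669 in Clone 1 and 653 in Clone 3, against 327 in PC3-ML and 300.4 in PC3-N, a rise of 1.08 (SE 0.14, limma adjusted p = 8.2e-04), while its second, dimmer probe set differed by 0.57. ATP5F1B, the catalytic beta subunit of ATP synthase, was at 3222 in Clone 1 and 2986 in Clone 3, against 1926 in PC3-ML and 2122 in PC3-N, also a rise (0.62, SE 0.09), and UQCRC2, a core subunit of complex III, at 629 in Clone 1 and 488 in Clone 3, against 409 in PC3-ML and 376 in PC3-N. NDUFS4, a complex I subunit, was the widest fall, at 184 in Clone 1 and 247 in Clone 3, against 471 in PC3-ML and 364 in PC3-N (adjusted p of the same-side test 0.0532, not called), and its second probe set lay near the floor of the arrays and differed by -0.02. Of 73 mitochondrial ribosomal protein genes 6 rose and 12 fell, 2 and 20 after quantile normalization. DAP3, a mitochondrial ribosomal protein that this symbol family leaves out, was called higher, at 596 to 642 in the clones and 351 to 415 in the uncloned sublines, and was named after its values were seen.

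LSM2, part of the ring of LSM proteins that binds U6 RNA in the spliceosome and decapped mRNAs in the cytoplasm, was lower and read 81.9 and 67.4 in Clone 1 and 81.4 and 75.2 in Clone 3, against 147 and 144 in PC3-ML and 143 and 138 in PC3-N (gap -0.84, adjusted p = 0.0188). Its 3 probe sets gave mean differences of -0.91, -0.90 and -0.90. Of 21 genes taken by their Sm and LSM symbols, not by a place in the ring, 2 rose and 6 fell, 1 and 10 after quantile normalization. LSM6 was at 171 in Clone 1 and 224 in Clone 3, against 315 in PC3-ML and 244 in PC3-N, while LSM14A, a decapping regulator of the same name family, was at 354 in Clone 1 and 301 in Clone 3, against 236 in PC3-ML and 256 in PC3-N. The called lower genes spanned less of the genome than the higher ones, with a median of 8.04 kb over 16 protein-coding genes, 40.5 kb over 45 higher ones, 35.3 kb over all protein-coding genes of mean log2 at least 6 and 27.3 kb over all protein-coding genes tested, as annotated by RefSeq.

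**Figure D3:**
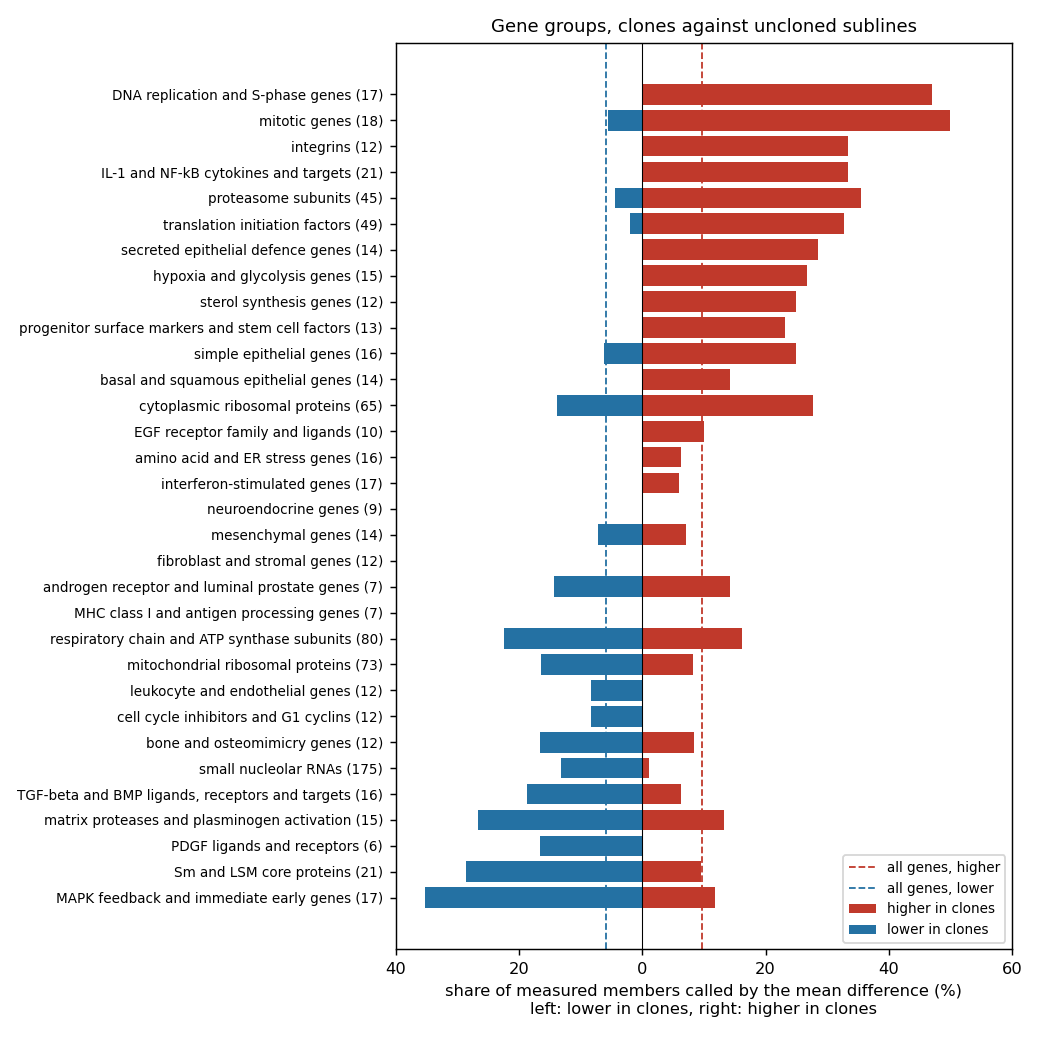
Share of each gene group's measured members (number in brackets) called by the mean difference, with higher in clones to the right in red and lower to the left in blue, in percent. Dashed lines mark the shares over all genes, 9.62% higher and 5.89% lower. Mitotic and S-phase genes extend furthest to the right, and MAPK feedback genes and Sm and LSM proteins furthest to the left.

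Of 17 MAPK feedback and immediate early genes, which ERK signalling induces, 2 rose and 6 fell, 1 and 6 after quantile normalization. The list's median was -0.14. JUN, a subunit of AP-1, was at 57.7 in Clone 1 and 58.2 in Clone 3, against 87.1 in PC3-ML and 82.5 in PC3-N (-0.55, SE 0.07, limma adjusted p = 8.9e-04). The phosphatase gene DUSP4 was at 38.5 in Clone 1 and 47.7 in Clone 3, against 55.8 in PC3-ML and 63.9 in PC3-N and the ETS factor gene ETV4 at 52.2 in Clone 1 and 59.0 in Clone 3, against 81.9 in PC3-ML and 78.8 in PC3-N, both lower in each clone. MYC rose in the mean through Clone 3, at 307 in Clone 1 and 456 in Clone 3, against 323 in PC3-ML and 289 in PC3-N, and PHLDA1 likewise, at 612 in Clone 1 and 1077 in Clone 3, against 592 in PC3-ML and 644 in PC3-N. The 15 measured genes of matrix proteolysis and plasminogen activation gave 2 rises and 4 falls, 2 and 3 after quantile normalization. TIMP1, an inhibitor of metalloproteinases, rose, at 513 in Clone 1 and 438 in Clone 3, against 176 in PC3-ML and 254 in PC3-N, and TIMP3, another, fell, at 26.5 in Clone 1 and 33.3 in Clone 3, against 155 in PC3-ML and 46.3 in PC3-N (adjusted p of the same-side test 0.0711; a second, dimmer probe set differed by -0.43, against -1.51). PLAT, the tissue plasminogen activator, was at 43.4 in Clone 1 and 236 in Clone 3, against 285 in PC3-ML and 475 in PC3-N, and MMP14, a membrane-bound protease, at 47.1 in Clone 1 and 43.4 in Clone 3, against 54.1 in PC3-ML and 57.9 in PC3-N.

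Among 16 genes of TGF-beta and BMP signalling 1 rose and 3 fell, 0 and 3 after quantile normalization. FST, which traps activin, was at 394 in Clone 1 and 655 in Clone 3, against 1109.7 in PC3-ML and 1033 in PC3-N (-1.08, SE 0.09, adjusted p of the same-side test 0.0691, not called). Of 12 integrin genes 4 rose and 0 fell, 3 and 1 after quantile normalization, and ITGAV, the alpha subunit of vitronectin receptors, was at 169.8 in Clone 1 and 169 in Clone 3, against 108 in PC3-ML and 107 in PC3-N (0.66, SE 0.08), with a same-side adjusted p of 0.0610. Of 15 hypoxia and glycolysis genes 4 rose and 0 fell, 4 and 1 after quantile normalization. ENO1, the glycolytic enolase, was at 4288 in Clone 1 and 2868 in Clone 3, against 883 in PC3-ML and 1779 in PC3-N (1.48, SE 0.20), with the sublines themselves far apart. HSPA5, the chaperone of the endoplasmic reticulum, was at 1244 in Clone 1 and 1281 in Clone 3, against 814 in PC3-ML and 849 in PC3-N, the only call among 16 amino acid and ER stress genes. Of 12 sterol synthesis genes 3 rose and 0 fell, 1 and 0 after quantile normalization, among them FDPS, at 831 in Clone 1 and 535 in Clone 3, against 445 in PC3-ML and 508 in PC3-N. As deposited, the rises of the hypoxia and glycolysis list and of the sterol list were near the 24.8% over all genes of mean log2 at least 6. Of 12 bone and osteomimicry genes 1 rose and 2 fell, 0 and 2 after quantile normalization, with the Wnt inhibitor gene DKK1 at 687 in Clone 1 and 879 in Clone 3, against 647 in PC3-ML and 631 in PC3-N and CCN2 at 106 in Clone 1 and 97.3 in Clone 3, against 121 in PC3-ML and 195 in PC3-N.

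Lists that mark other cell types had few calls. Of 12 fibroblast and 9 neuroendocrine genes limma called 0. Of 12 leukocyte and endothelial genes 1 fell, the VEGF receptor gene KDR, at 64.0 in Clone 1 and 53.5 in Clone 3, against 98.6 in PC3-ML and 161 in PC3-N, and the summed intensity of that list was 403 to 476 on the clone arrays and 410 to 567 on the uncloned arrays. Of 14 secreted epithelial defence genes 4 rose and 0 fell, and of 14 basal and squamous genes 2 rose and 0 fell, the same numbers after quantile normalization, but the values were mostly those of Clone 3. The lipocalin gene LCN2 was at 74.8 in Clone 1 and 688 in Clone 3, against 61.2 in PC3-ML and 37.2 in PC3-N and the serpin gene SERPINB3 at 25.4 in Clone 1 and 673 in Clone 3, against 29.7 in PC3-ML and 22.4 in PC3-N, so SERPINB3 was high in Clone 3 alone. C3, a complement component, was above the uncloned sublines in both clones, at 55.7 in Clone 1 and 47.7 in Clone 3, against 29.6 in PC3-ML and 25.4 in PC3-N. PDGFRA was the only call among 6 PDGF genes. It read 31.0 and 26.5 in Clone 1 and 130.1 and 126 in Clone 3, against 104 and 155 in PC3-ML and 103 and 109 in PC3-N, low in Clone 1 alone.

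Calls in the mean difference could thus rest on 1 clone, and some genes went opposite ways. In 9 genes Clone 1 was called above and Clone 3 called below both uncloned sublines, and in 12 the reverse held. Here each of the 4 differences had its own limma adjusted p under 0.05. Small RNAs, Y-linked genes, XIST and unnamed loci were left out. Without that exclusion, the same rule called 213 of 18372 genes (1.16%) higher and 109 (0.593%) lower in both clones. LCP1, the actin bundler L-plastin, read 804 and 782 in Clone 1 and 25.5 and 25.3 in Clone 3, against 231 and 185 in PC3-ML and 117 and 127 in PC3-N. Clone 3 was at the floor and Clone 1 the highest line of the series. ARHGDIB read 157 and 141 in Clone 1 and 24.6 and 24.5 in Clone 3, against 61.9 and 78.6 in PC3-ML and 62.1 and 68.2 in PC3-N, and LIMA1, another actin-binding protein, 269 and 236 in Clone 1 and 73.1 and 61.0 in Clone 3, against 106 and 100.5 in PC3-ML and 101 and 123 in PC3-N, with the clones on the same sides as for LCP1. In the reverse orientation, RBP4, the carrier of retinol, read 32.6 and 31.1 in Clone 1 and 125 and 124 in Clone 3, against 40.7 and 52.4 in PC3-ML and 75.8 and 57.0 in PC3-N, and FER1L6, a ferlin, 23.3 and 24.1 in Clone 1 and 96.3 and 101 in Clone 3, against 31.4 and 38.4 in PC3-ML and 29.7 and 29.6 in PC3-N. PTTG1IP, which binds the securin PTTG1, read 448 and 454 in Clone 1 and 1328 and 1202 in Clone 3, against 698 and 703 in PC3-ML and 745 and 598 in PC3-N. In all 6 the mean of the clones hides a difference between them of at least 1.49 on the log2 scale.

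**Figure D4:**
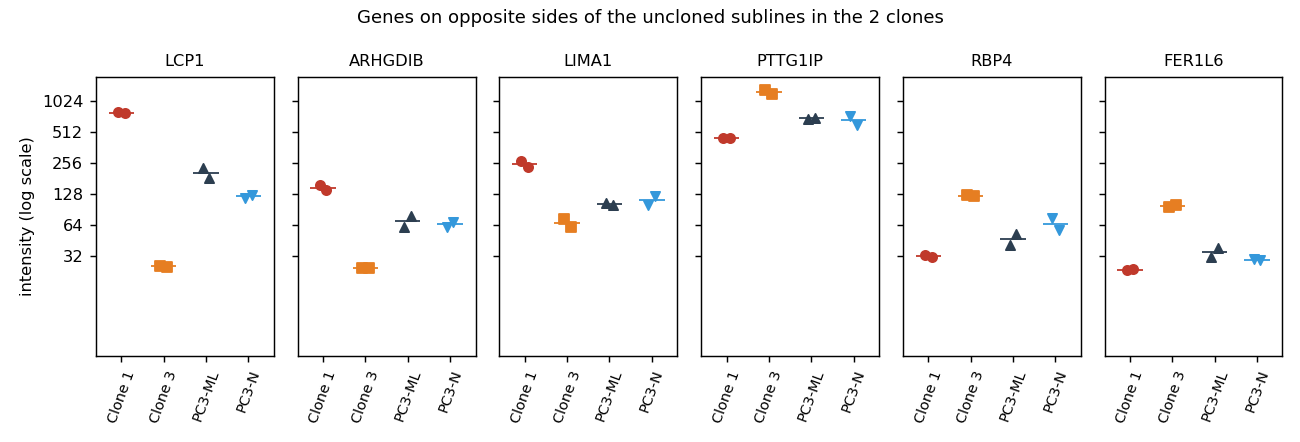
Intensity on a log axis for the 6 genes with the largest difference between the clones among those called on opposite sides of the uncloned sublines. Points are the 2 arrays of each line and bars their mean, for Clone 1, Clone 3, PC3-ML and PC3-N. LCP1, ARHGDIB and LIMA1 are highest in Clone 1 and lowest in Clone 3, and PTTG1IP, RBP4 and FER1L6 the reverse.

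The clones were also set beside the 6 arrays of the other lines. In 35 of the 46 higher and 14 of the 19 lower genes the clone arrays lay beyond all 10 other arrays of the series, as did 605 genes (3.29%) above and 344 (1.87%) below over all genes. Those 10 include the 4 uncloned arrays, which the called genes already cleared, as the rule that chose them largely fixes. Of all genes, 1312 lay above and 1463 below those 4 uncloned arrays, the nearer base for these counts. The 10 also include the arrays of PC3-N(PDGFRα), another line of PC3 origin. The genes had been chosen by their distance from PC3-ML and PC3-N, so the counts of 35 and 14 are a description and no test. Each single difference called more genes than the joint test, with 2533 (13.8%) between Clone 1 and PC3-ML, 1489 (8.1%) between Clone 3 and PC3-ML, 2412 (13.1%) between Clone 1 and PC3-N and 1260 (6.86%) between Clone 3 and PC3-N. Differences against the same subline share its arrays. Asking each of the 4 for its own adjusted p under 0.05 called 322 genes on the same side, 213 higher (1.16%) and 109 lower (0.593%). That rule was added after the data were seen.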

How the data were processed

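The arrays measured RNA of 7 prostate cancer lines, 2 passages each, 14 arrays in all. The deposited values are probe set intensities on a linear scale (18.5 to 8654), which the authors made with RMA, per the submitters' processing notes. Its version and settings are not given in the sources used here, and the number of arrays limits the precision. The intensities were turned into log2 with no added constant and no further normalization. The platform annotation gave 1 gene symbol to 19291 of 28829 probe sets, several to 1735 and none to 7803, and 19260 were matched to current RefSeq names by gene number. Where a gene had more than 1 probe set (682 genes) the brightest on average stood for it, which left 18372 genes.

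A limma model (version 3.58.1, under R 4.3.3) with a mean per line and no covariates was fitted to the 14 arrays, and p values were adjusted by Benjamini-Hochberg over all 18372 genes at 0.05. Nothing in the labels says that passages came from separate stocks, so p values measure the spread between passages. Line values are geometric means of 2 arrays. The same-side call takes the largest of 4 p values, the mean difference is a contrast of 4 line means, and a further fit takes the 4 line means as its values. Genes were named by the 15 widest gaps in each direction among called genes without overlap, up to 4 called members of each list, the 3 largest differences between clones in each opposed orientation, and PDGFRA, IL1B, CXCL6, KRT8, KRT18, VIM and CTNNA1. Small RNAs were outside that rule, and the text says where a gene was named after its values were seen. Further members of the lists are given with their values and were chosen after these were seen. The comparison and the lists were chosen with earlier results of these data known. The fit was tested on simulated data. Promoters and gene spans came from RefSeq, assembly GRCh38.p14. The alternatives tried were quantile normalization, a filter on dim genes, the mean of a gene's probe sets, the 8 arrays alone, another prior variance, the replicate number as a block, other rules for a call, and leaving out each array.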

Additional observations from a re-analysis of the deposited data

Results flagged for a closer look

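By the adjusted p of each single difference, the clones were called on opposite sides of both uncloned sublines in 21 genes. Of these, 9 had Clone 1 above and 12 had Clone 3 above. The 3 with the largest difference between the clones in each orientation are given here, so their p values are a description and no independent test. Clone 1 minus Clone 3 was 4.96 for LCP1, 2.60 for ARHGDIB and 1.92 for LIMA1 on the log2 scale, with limma adjusted p of 6.5e-08, 3.0e-06 and 2.5e-05. It was -2.05 for FER1L6, -1.97 for RBP4 and -1.49 for PTTG1IP, with limma adjusted p of 1.9e-06, 4.2e-05 and 4.6e-05.

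In 2 of 86 groups of 4 arrays 1 array stood apart from the rest by Dixon's ratio, judged by its 95% critical value, which chance passes in about 1 group in 20. The ratio was 0.949 for TPM2 on the clone arrays, where Clone 3 replicate 1 was at 93.2, and 0.859 for PDGFRA on the uncloned arrays, where PC3-ML replicate 2 was at 155.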

How the results depend on the processing

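The count of 65 genes on the same side was 78 after quantile normalization, 60 with the mean of a gene's probe sets, 91 with a prior variance that follows intensity and 71 with the replicate block. It was 120 (80 higher, 40 lower) over genes of mean log2 at least 5.5, an intensity of 45.3, and 35 (19 higher, 16 lower) on the 8 arrays alone. After the data were seen, 2 other rules were added: each of the 4 differences with its own adjusted p gave 322, and at least 1.5-fold between the nearest lines gave 40. With each array left out in turn the count was 4 to 39. The lone array of a line is then assumed to vary like the others, and the cause of the lower counts beyond fewer arrays was not tested. The mean difference called 2849 genes, 2610 after quantile normalization (1392 higher, 1218 lower), 2815 with the replicate block and 1916 to 2549 with an array left out. The 4 line means gave 0 calls in each setting run.

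Without single arrays, Clone 1 minus PC3-ML called 1213 to 2525 genes (2533 with all), Clone 3 minus PC3-ML 431 to 1564 (1489), Clone 1 minus PC3-N 1325 to 2331 (2412), Clone 3 minus PC3-N 604 to 1192 (1260) and Clone 1 minus Clone 3 1018 to 1931 (1925). PC3-ML minus PC3-N called 64 genes, 15 on the 8 arrays alone, 42 with the replicate block and 12 to 170 without single arrays. KRT8 (0.01) turned to -0.13 after quantile normalization, with limma adjusted p = 0.632, and lay between -0.085 (without PC3-N replicate 2) and 0.10 without single arrays, below 0 also without PC3-ML replicate 1 and Clone 3 replicate 2. The differences between replicate 1 and replicate 2 correlated between lines at -0.20 to 0.22, and whether same-numbered arrays shared more than a number was not tested. Under the replicate block 4 of the 30 genes with the widest gaps lost their call (ACO1, MRPL14, STX8 and UQCR10, same-side adjusted p 0.0536 to 0.0671).

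With the mean of probe sets ELOF1, SMCHD1 and UQCR10 lost their call (adjusted p 0.0503, 0.0518 and 0.0504), and with the other prior variance AURKA and UQCR10 did (0.196 and 0.0627). Among those 30 genes 2 to 20 kept their call without single arrays, and none changed side in any setting run.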
